A study of Mus musculus with 6 samples.

Results

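The mitochondrial genome of the mouse contributes 37 of the 56748 genes in the count table of this study, all rows assigned to chromosome MT. They are 13 mRNAs, 2 rRNAs and 22 tRNAs. The rule that selects them uses position only and no measured value, but it was chosen with earlier results of these data known. The libraries came from aortas of 6-month-old mice deficient in apolipoprotein E (Apoe -/-), the protein that clears remnant lipoproteins. All animals of both groups carried that deficiency and were given angiotensin II, a peptide that raises blood pressure, from an implanted osmotic minipump for 28 days. One group held 3 wild-type littermates (WT, meaning that soluble ST2 was intact), and the other held 3 littermates without soluble ST2 (sST2-KO), the secreted decoy receptor for IL-33. How the sST2 allele was made, and whether it acts in every cell, is not given in the sources used here. Messenger RNA was captured on poly-T beads, so what was counted is the polyadenylated part of mitochondrial RNA and what was carried along with it.

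Mitochondrial DNA encodes core subunits of the respiratory chain and of ATP synthase, together with the rRNAs and tRNAs that translate them inside the organelle. Both strands, called heavy and light, are transcribed into long precursors by the nuclear-encoded polymerase Polrmt, and the tRNAs between the coding genes mark where the precursors are cut. Levels of the mature RNAs therefore depend on transcription, on cutting and on decay. All other respiratory subunits are encoded in the nucleus and imported.

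The genome is compact enough that neighbouring genes share bases, which limits what a count can be assigned to. The end of mt-Atp8 (MT, 7766 to 7969) and the start of mt-Atp6 (MT, 7927 to 8607), subunits of ATP synthase read from 1 transcript, share 43 bases. The end of mt-Nd4l (MT, 9877 to 10173) and the start of mt-Nd4 (MT, 10167 to 11544), subunits of complex I, share 7 bases. The last 60 bases of the upstream gene and the first 60 of the downstream gene are given 5′ to 3′, from GENCODE vM21 transcripts matched by gene identifier and length, with the shared bases in capitals.
mt-Atp8: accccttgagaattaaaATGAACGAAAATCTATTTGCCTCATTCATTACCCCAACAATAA
mt-Atp6: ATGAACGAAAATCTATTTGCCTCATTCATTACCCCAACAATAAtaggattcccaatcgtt
mt-Nd4l: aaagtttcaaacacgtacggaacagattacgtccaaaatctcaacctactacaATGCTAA
mt-Nd4: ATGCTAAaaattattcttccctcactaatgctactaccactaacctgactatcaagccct
The remaining overlaps are those of mt-Nd5 and mt-Nd6, which lie on opposite strands and share 14 bases, and of mt-Atp6 and mt-Co3, which share 1 base.

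A stretch of chromosome 1 (chr1:24650616-24655278 in mm39, the build of the deposited table) holds 7 annotated genes that repeat the middle of the mitochondrial genome. Of the 4137 bases aligned between these nuclear copies and their mitochondrial counterparts, 4136 were identical, and 6 of the 7 copies had no difference at all. The exception is Gm29216, the copy of the end of mt-Co1, which differs by the substitution A1066T, counted from 1 at the start of mt-Co1. The first 60 bases of that match are shown with the substituted base in capitals, followed by the first 60 bases of mt-Co2 and of its copy Gm28661, which do not differ.
mt-Co1: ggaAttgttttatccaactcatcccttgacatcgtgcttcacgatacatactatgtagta
Gm29216: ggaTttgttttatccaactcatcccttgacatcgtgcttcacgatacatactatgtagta
mt-Co2: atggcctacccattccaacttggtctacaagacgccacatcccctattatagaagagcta
Gm28661: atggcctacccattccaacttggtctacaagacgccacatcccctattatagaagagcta
A fragment from such a stretch fits both places equally well, and how the authors' counting treated such fragments is not given in the sources used here. The copied stretch covers 6 of the 13 mRNAs (mt-Co2, mt-Atp8, mt-Atp6, mt-Co3, mt-Nd3 and mt-Nd4l), parts of mt-Co1 and mt-Nd4, and 5 tRNAs. The other 5 mRNAs, mt-Nd1, mt-Nd2, mt-Nd5, mt-Nd6 and mt-Cytb, lie outside it.

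The 6 libraries held 15615658 to 17988552 counts. The smooth muscle markers Acta2 and Myh11 were present in all of them (at least 1644 and 797 CPM), as the aorta label implies, and summed smooth muscle markers ranged from 3054 to 10552 CPM. Other tissues were also present and unequally so. Airway markers summed to 35583 CPM in sST2-KO replicate 2 and to at most 42.5 CPM elsewhere, and hepatocyte markers to 10161 CPM in WT replicate 3 and to at most 585 CPM elsewhere. Outside WT replicate 3 the hepatocyte sum was mostly 1 gene, Cyp2e1, at up to 576 CPM. Alb had 6205 CPM in WT replicate 3 and at most 3.83 CPM in any other library. Brown adipocyte markers, led by Ucp1 and Cidea, reached 1196 and 2373 CPM in sST2-KO replicates 1 and 3 against 129 to 302 CPM in the other 4. Dio2 did not follow this order, with 144 CPM in WT replicate 2 against 62.3 CPM in sST2-KO replicate 1. It supplied most of the 156 CPM of WT replicate 2, where Ucp1 and Cidea had 2.87 and 5.50 CPM. Macrophage markers summed to 794 to 1036 CPM in WT against 500 to 656 CPM in sST2-KO, and erythroid markers to 745 to 4771 against 60.5 to 1177 CPM. Not every macrophage marker followed the sum. Cd14 was highest in sST2-KO replicate 2 (81.6 CPM, against 40.9 to 66.7 CPM in WT), and C1qa and Mertk overlapped between the groups. Counts of Apoe were 15.1, 11.6 and 507 CPM in WT against 172, 86.7 and 145 CPM in sST2-KO, and Il1rl1, which encodes both forms of ST2, had 2.81, 9.49 and 4.35 against 2.39, 2.82 and 4.86 CPM. Counts per gene do not show which exons were read, so neither gene settles the genotype of a library.

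Mitochondrially encoded genes took between 7.08% and 37.8% of all counts, a 5.33-fold range across aortas. The WT aortas, in replicate order here and throughout, had 18.4%, 37.8% and 19.4%, and the sST2-KO aortas 23.7%, 7.08% and 20.7%. WT replicate 2 and sST2-KO replicate 2 lay at the extremes, and the other 4 libraries, from both groups, lay between 18.4% and 23.7%. The exact 95% binomial (Clopper-Pearson) interval of each share is narrow, for example 7.07% to 7.10% in sST2-KO replicate 2. The means were 25.2% ± 10.9 in WT against 17.2% ± 8.86 in sST2-KO (SD, n = 3 each). The difference of -8.02 percentage points was within the spread between replicates (exact permutation test, two-sided, p = 0.6, and 0.6 after Benjamini-Hochberg adjustment over the 4 within-genome and share comparisons). In this design of 3 against 3 no p below 0.1 is possible. Without WT replicate 2 the difference was -1.74 points, and without sST2-KO replicate 2 it was -2.98. In bulk tissue, fewer cells rich in mitochondria and less mitochondrial RNA per cell cannot be told apart.

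Nearly all of this signal was mRNA. The 13 mRNAs took 6.92% to 37.1% of counts. The 2 rRNAs took 0.394%, 0.649% and 0.434% in WT against 0.441%, 0.147% and 0.784% in sST2-KO, again with sST2-KO replicate 2 lowest but with sST2-KO replicate 3 highest. The rows of the 22 tRNAs took 0.0479%, 0.0528% and 0.0473% in WT against 0.0439%, 0.0179% and 0.0319% in sST2-KO. All 3 sST2-KO libraries were below all 3 WT libraries for the tRNAs, the only one of the 3 RNA classes without overlap (exact permutation p = 0.1, two-sided, unadjusted and outside the 4 comparisons above). A single row, mt-Tp, supplied 50.9% to 72.8% of these tRNA counts. Per 1000 mRNA counts the tRNA rows overlapped, with 2.67, 1.42 and 2.50 in WT against 1.89, 2.58 and 1.60 in sST2-KO.

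**Figure D1:**
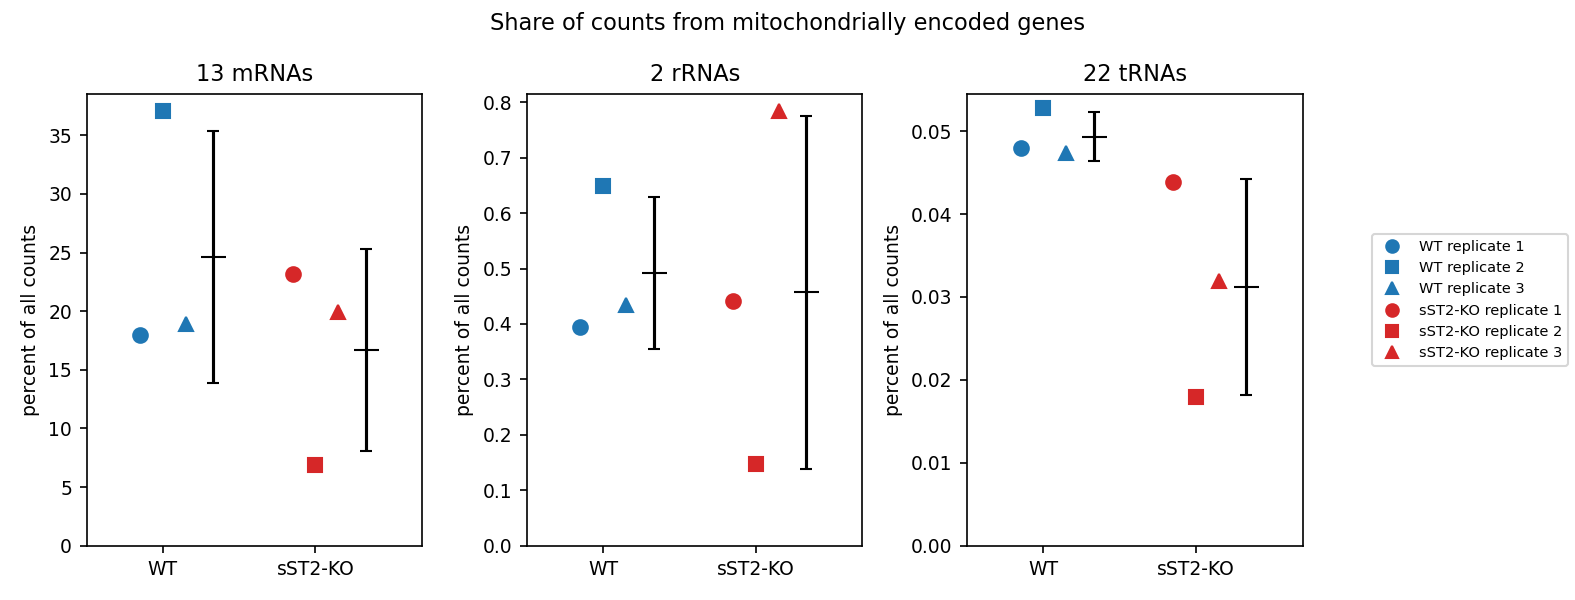
Percent of all counts in the 13 mRNAs, 2 rRNAs and 22 tRNAs, with 1 point per library and the mean ± SD (n = 3) beside each group; each panel has its own axis, starting at 0. WT replicate 2 (37.1%) and sST2-KO replicate 2 (6.92%) bound the mRNA share, and only the tRNA panel shows no overlap between the groups.

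In the test across all genes, 28 of the 37 genes had enough counts to be tested: all mRNAs, both rRNAs and 13 tRNAs. None passed in either direction (edgeR quasi-likelihood test, lowest adjusted p among them 0.431), and the background was the same, with 0.0% of 16377 tested genes called higher and 0.0% called lower. At an unadjusted p under 0.05 there was 1 of the 28, mt-Tn, against 5.95% of all genes on the lower side and 5.08% on the higher side. DESeq2, which called 0.36% of genes higher and 1.42% lower, called 0 of the 28. It had 3 of them at an unadjusted p under 0.05, against 920 higher and 1085 lower among all 16377 tested genes. Groups did not overlap for 2 of the 28, both tRNAs and both lower in sST2-KO, against 10.0% of all genes lower and 9.09% higher without overlap.

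The log2 change was below 0 for 13 of 13 mRNAs (median -0.68, from -1.03 to -0.40), while the median over all tested genes was 0.04 and 46.5% of them were negative. That common sign depended mainly on WT replicate 2, and its size also on sST2-KO replicate 2. WT replicate 2 was the highest library for 13 of 13 mRNAs and sST2-KO replicate 2 the lowest for 13 of 13. Without WT replicate 2 the median was -0.0083, with 7 mRNAs negative and 6 positive, and without sST2-KO replicate 2 it was -0.23, with 12 negative and 1 positive. Without sST2-KO replicate 1 it was -1.16. When libraries were scaled by the mRNAs themselves the median was -0.05, again with 7 negative and 6 positive, and the median of all tested genes moved to 0.93. On that scale edgeR called 1.67% of all genes higher and 0.055% lower, and 0 of the 28.

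Complex I, the entry point of electrons from NADH, has 7 mitochondrially encoded core subunits. mt-Nd1 (ENSMUSG00000064341, MT, 2751 to 3707), which helps to form the quinone-binding region, had 15158, 44361 and 17824 TMM-normalized CPM in WT against 25927, 7035 and 25559 CPM in sST2-KO. The extremes are again the replicate 2 libraries, and the other sST2-KO libraries were above the other WT libraries. The resulting log2 change, -0.40 with an SE of 0.67, was the smallest of the 13 (edgeR adjusted p = 0.816). At the other end, mt-Nd4l had 184, 1187 and 366 CPM in WT against 606, 54.5 and 192 CPM in sST2-KO, which gave the largest change on the log2 scale (-1.03, SE 0.96, edgeR adjusted p = 0.669). The other 5, mt-Nd2, mt-Nd3, mt-Nd4, mt-Nd5 and mt-Nd6, had log2 changes from -0.90 to -0.48.

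mt-Cytb (ENSMUSG00000064370, MT, 14145 to 15288), the only mitochondrially encoded subunit of complex III and the carrier of its b hemes, had 28463, 72887 and 30115 CPM in WT against 41751, 10609 and 36057 CPM in sST2-KO (log2 change -0.57, SE 0.68, edgeR adjusted p = 0.731). In complex IV, which hands electrons to oxygen, mt-Co1 (ENSMUSG00000064351, MT, 5328 to 6872) encodes the subunit with the catalytic heme and copper centre. It had 74009, 209555 and 77985 CPM in WT against 93407, 25228 and 82729 CPM in sST2-KO, so both other sST2-KO libraries exceeded both other WT libraries here too. Its log2 change was -0.84 (SE 0.73, edgeR adjusted p = 0.642). mt-Co2 and mt-Co3, also core subunits of complex IV, had log2 changes of -0.80 (SE 0.91) and -0.64 (SE 0.91).

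Of the ATP synthase subunits, mt-Atp6, which forms part of the proton channel, had 2524, 11074 and 4881 CPM in WT against 4527, 482 and 4804 CPM in sST2-KO. WT replicate 2 was again the highest and sST2-KO replicate 2 the lowest. mt-Atp8, a small subunit of the same enzyme, had 64.3 to 130 CPM in WT against 11.4 to 68.7 CPM in sST2-KO. Over the 13 mRNAs the highest library exceeded the lowest by 5.25-fold to 25.4-fold.

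**Figure D2:**
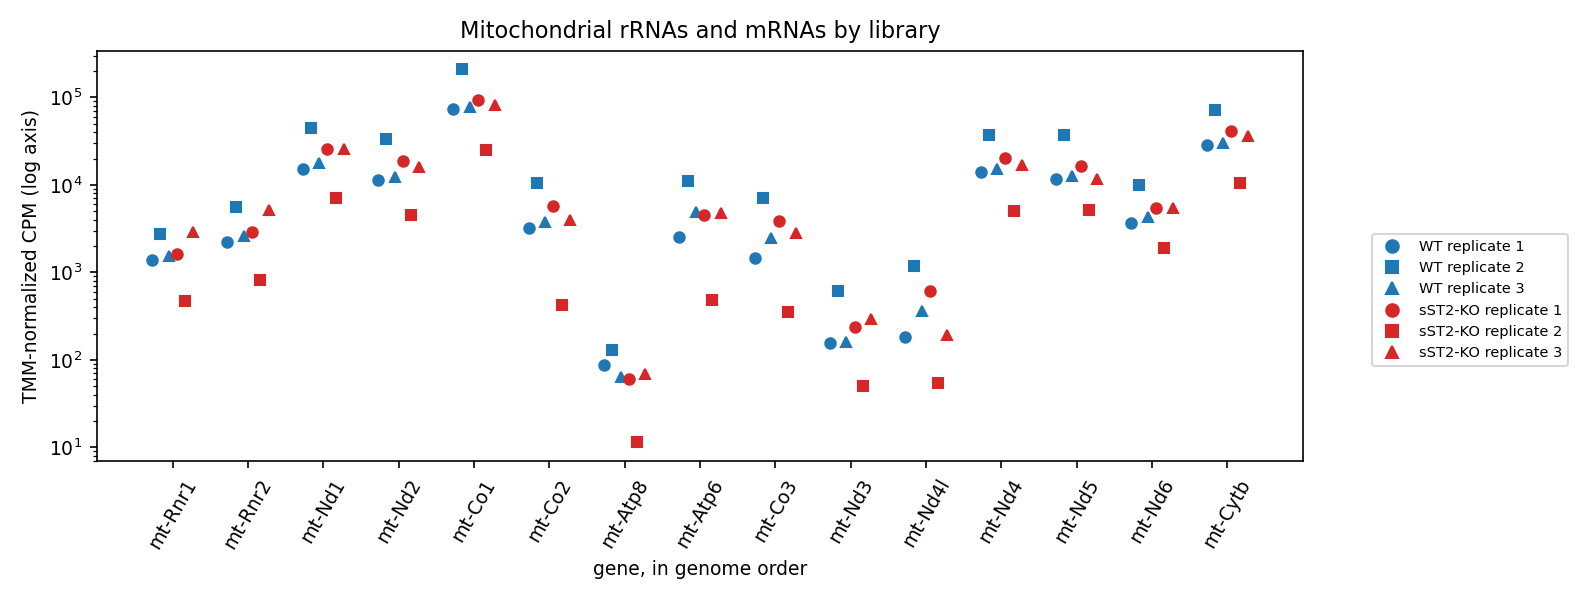
TMM-normalized CPM on a log axis for the 2 rRNAs and 13 mRNAs in genome order, 1 point per library. WT replicate 2 is the highest library and sST2-KO replicate 2 the lowest for 13 of 13 mRNAs.

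Relative levels within the genome varied less between libraries. They are given as each gene's percent of the counts of the 13 mRNAs in its library, and on this scale the highest library exceeded the lowest by 1.11-fold to 3.50-fold. To compare genes with each other, counts were first divided by gene length. On that scale, as a mean over the 6 libraries, mt-Co1 made up 32.9%, mt-Cytb 17.8%, mt-Nd1 13.3%, mt-Nd2 8.53% and mt-Nd4 7.24%, and this order held in 6 of 6 libraries. mt-Nd6 (5.72%) came next and was above mt-Nd5 (4.73%) in 5 of 6, and mt-Nd5 was above mt-Atp6 (3.40%) in 4 of 6. mt-Atp6 and mt-Co2 (3.30%) did not differ beyond their spread. The lowest 4 were mt-Co3 (1.87%), mt-Nd4l (0.676%), mt-Nd3 (0.366%) and mt-Atp8 (0.190%), with mt-Nd4l above mt-Nd3 in 5 of 6 libraries.

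Complex I mRNAs made up a higher share of mitochondrial mRNA in every sST2-KO library than in any WT library, a difference that did not pass its test. The 7 Nd genes made up 33.9%, 34.5% and 34.6% of mitochondrial mRNA counts in WT against 37.04%, 39.1% and 36.9% in sST2-KO. WT libraries lay within 1 percentage point of each other, and sST2-KO replicate 2 was the highest. The means were 34.3% ± 0.400 and 37.7% ± 1.22 (SD, n = 3 each). The difference of 3.36 percentage points gave the smallest p that the exact permutation test allows here (p = 0.1, two-sided, and 0.4 after adjustment over 4 comparisons), so it did not pass. Leaving out any 1 library gave 2.66 to 3.74 points. Leaving out the library with airway and the one with liver transcripts together gave 2.79 points. Complex I was not alone in this. Complex IV was lower without overlap (46.2% to 47.8% in WT against 42.7% to 43.4% in sST2-KO). Complex III, which is mt-Cytb, was higher (15.3% to 17.2% against 17.4% to 17.6%). Within complex I the genes differed, and mt-Nd5 and mt-Nd4l had lower mean shares in sST2-KO. Among the 5 mRNAs outside the copied stretch alone, the difference in the complex I share was 1.12 points (exact permutation p = 0.4, two-sided). That total holds only Nd genes and mt-Cytb, without mt-Co1 or any other complex IV gene, so it is a different measure. It mirrors the mean mt-Cytb share, 38.7% in WT against 37.6% in sST2-KO.

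The groups separated without overlap for 4 genes on this scale. mt-Co1, the most abundant, made up 44.6%, 44.1% and 42.8% in WT against 39.4%, 41.4% and 40.0% in sST2-KO. mt-Nd1 made up 9.14%, 9.33% and 9.78% against 10.9%, 11.6% and 12.4%. mt-Nd2 made up 6.89%, 7.08% and 6.81% against 7.94%, 7.49% and 7.84%. Thus mt-Co1 was lower and mt-Nd1 and mt-Nd2 were higher in all sST2-KO libraries than in any WT library. mt-Cytb was also higher (15.3% to 17.2% against 17.4% to 17.6%), but its groups overlapped once counts were divided by length. The other 9 mRNAs overlapped.

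Shares of 1 total move against each other, and mt-Co1 alone is over 39% of it, so these 4 differences are not independent of one another. Of all tested genes scaled in this way, 5.57% were higher and 0.0916% lower in sST2-KO without overlap, but those genes are not part of the divisor as the mRNAs are. Among the 28 tested members 5 were higher (the 3 mRNAs above, mt-Tl1 and mt-Te) and 1 was lower. With the nuclear copies added to their counterparts the same 4 mRNAs separated the groups. Among the 5 mRNAs outside the copied stretch only mt-Nd1 did, with 21.5%, 22.4% and 23.0% in WT against 23.9%, 24.1% and 26.9% in sST2-KO. mt-Nd2 and mt-Cytb overlapped on that scale.

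mt-Nd6 (ENSMUSG00000064368, MT, 13552 to 14070), a complex I subunit, is the only mRNA encoded on the light strand. It made up 2.23%, 2.08% and 2.38% of the mRNA counts in WT against 2.31%, 3.09% and 2.66% in sST2-KO. The groups overlapped, with sST2-KO replicate 2 highest. The means were 2.23% ± 0.153 and 2.68% ± 0.389 (SD, n = 3 each; exact permutation p = 0.2, two-sided, and 0.4 after adjustment). Because the strand setting of the counting is not given, reads of mt-Nd6 and of heavy-strand RNA running opposite to it cannot be told apart.

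**Figure D3:**
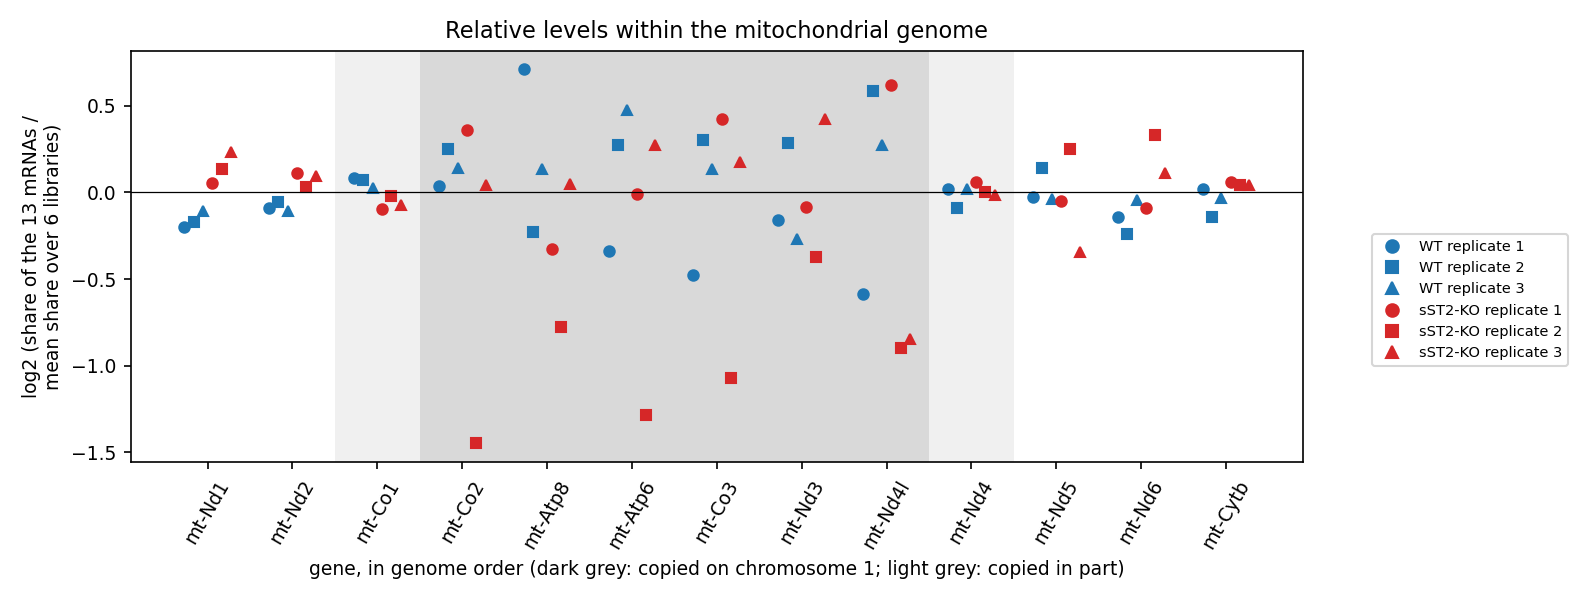
log2 of each mRNA's share of the 13 mRNAs over its mean share in the 6 libraries, in genome order, 1 point per library; dark grey marks genes copied on chromosome 1 and light grey genes copied in part. Points spread widely inside the copied stretch and little outside it, and mt-Nd1 and mt-Nd2 are higher and mt-Co1 lower in sST2-KO.

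Genes inside the copied stretch had lower mean relative levels than those outside it in both groups, and levels that varied more across the 6 libraries. Per kb, as means over the 6 libraries, the 6 mRNAs inside it made up 0.190% to 3.40% of mitochondrial mRNA each. The 5 outside it made up 4.73% to 17.8% each, so these means did not overlap. In single libraries they could: mt-Atp6, inside, was above mt-Nd5, outside, in WT replicate 3 (4.73% against 4.57%) and sST2-KO replicate 3 (4.03% against 3.64%). The ratio of mean counts per kb inside to outside was 0.150, 0.216 and 0.205 in WT against 0.189, 0.065 and 0.168 in sST2-KO. It was below 1 in every library and lowest in sST2-KO replicate 2. Shares also varied more inside: the highest library exceeded the lowest by 1.73-fold to 3.50-fold for the 6 mRNAs inside and by 1.15-fold to 1.51-fold for the 5 outside. Genes inside are on average shorter, and the part that length, copy number or the handling of fragments with 2 matches has in these levels was not tested.

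The copies themselves collected 0.0608% to 0.652% of all counts, highest in WT replicate 2 and lowest in sST2-KO replicate 2, as for the mitochondrial mRNAs. The copy's percent of the counts of each pair shows how the counts were divided. It was 0.375% to 1.20% for Gm29216 and mt-Co1, of which only the end is copied, and 1.01% to 3.65% for Gm28439 and mt-Nd4. For pairs copied along nearly their whole length it was higher, 9.07% to 21.9% for Gm28661 and mt-Co2, 14.1% to 23.3% for Gm10925 and mt-Atp6, and 9.80% to 16.6% for Gm28437 and mt-Co3. It reached 12.2% to 33.7% for Gm28438 and mt-Nd3 and 11.5% to 40.4% for Gm10222 and mt-Nd4l. Group values overlapped for 7 of 7 pairs, and the copies' own log2 changes (6 negative, 1 positive, median -1.07, or 0.02 without WT replicate 2) did not pass the edgeR threshold. For these genes the level in the count table is therefore uncertain, and adding the copies left the inside mRNAs at 2.78% to 7.63% of the combined mRNA and copy counts, against 2.25% to 6.47% of mRNA counts without them.

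The rRNAs mt-Rnr1 (MT, 70 to 1024) and mt-Rnr2 (MT, 1094 to 2675) form the small and large subunits of the mitochondrial ribosome. mt-Rnr2 had 2243, 5569 and 2634 CPM in WT against 2860, 821 and 5206 CPM in sST2-KO (log2 change -0.23, SE 0.68, edgeR adjusted p = 0.901). mt-Rnr1 had 1398, 2751 and 1546 CPM against 1643, 469 and 2934 CPM (log2 change -0.17, SE 0.64, edgeR adjusted p = 0.923). The groups overlapped for both rRNAs. For every 100 mRNA counts there were 2.19, 1.75 and 2.29 rRNA counts in WT against 1.90, 2.12 and 3.94 in sST2-KO, so sST2-KO replicate 3 stood above the other 5. On the log2 scale the groups averaged -5.60 ± 0.209 and -5.32 ± 0.567 (SD, n = 3 each), a difference of 0.28 within the spread (exact permutation p = 0.6, two-sided, and 0.6 after adjustment). Without sST2-KO replicate 3 it was -0.04. The ratio of mt-Rnr2 to mt-Rnr1 counts was 1.60 to 2.02 in all libraries. Poly-T capture favours RNA with longer tails, so these ratios do not give the rRNA content of the cells.

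The tRNA rows held 3180 to 8493 counts per library, and a few genes supplied most of them. The sequences of 3 tRNA genes are shown whole, on their own strand: mt-Tp, the most counted, mt-Te, which separated the groups relative to mRNA, and mt-Tf, which had no count.
mt-Tp: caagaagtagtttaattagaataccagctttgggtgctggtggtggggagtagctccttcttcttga
mt-Te: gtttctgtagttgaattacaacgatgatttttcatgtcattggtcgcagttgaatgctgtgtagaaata
mt-Tf: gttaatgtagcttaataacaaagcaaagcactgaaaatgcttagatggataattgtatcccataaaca
mt-Tp (MT, 15356 to 15422), which carries proline, had 5841, 4995 and 5157 counts in WT against 5381, 2095 and 2533 in sST2-KO and made up 50.9% to 72.8% of all tRNA counts. The 8 light-strand tRNAs together supplied 88.8% to 97.1% of tRNA counts, and the 14 heavy-strand tRNAs the rest. Each light-strand tRNA lies opposite to heavy-strand precursor, and the library fragments were longer than any tRNA, so these counts cannot be read as mature tRNA.

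In CPM, mt-Tp and mt-Tn were the tRNAs without overlap between groups. mt-Tp had 322, 398 and 308 CPM in WT against 306, 104 and 169 CPM in sST2-KO, with sST2-KO replicate 1 only just below the lowest WT library (log2 change -0.83, SE 0.39, edgeR adjusted p = 0.476). mt-Tn (MT, 5089 to 5159), which carries asparagine, had 49.8, 50.9 and 47.0 CPM in WT against 32.4, 13.2 and 29.1 CPM in sST2-KO. The WT libraries lay close together, WT replicate 2 included, and all 3 sST2-KO libraries were lower. Its log2 change of -0.99 (SE 0.32) had the lowest p of the 28 tested members and did not pass (edgeR unadjusted p = 0.019, adjusted p = 0.431; DESeq2 adjusted p = 0.162). Per 1000 mRNA counts mt-Tn overlapped, with 0.300, 0.107 and 0.258 in WT against 0.137, 0.216 and 0.141 in sST2-KO.

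mt-Te (MT, 14071 to 14139), which carries glutamate and lies between mt-Nd6 and mt-Cytb, went the other way. Per 1000 mRNA counts it had 0.0665, 0.0761 and 0.113 in WT against 0.142, 0.217 and 0.165 in sST2-KO, higher in all sST2-KO libraries. In CPM its groups overlapped (11.03, 36.2 and 20.6 against 33.6, 13.2 and 34.1; log2 change 0.26, SE 0.51, edgeR adjusted p = 0.845). Of the remaining tRNAs, mt-Tc, for cysteine, had 333 to 1643 counts, and mt-Tl1, for leucine, and mt-Ty, for tyrosine, had 55 to 306. Another 9 tRNAs had too few counts to be tested, with at most 74 over the 6 libraries. mt-Tf, for phenylalanine, had 0 counts in each, which at this depth allows up to 0.148 to 0.239 CPM.

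**Figure D4:**
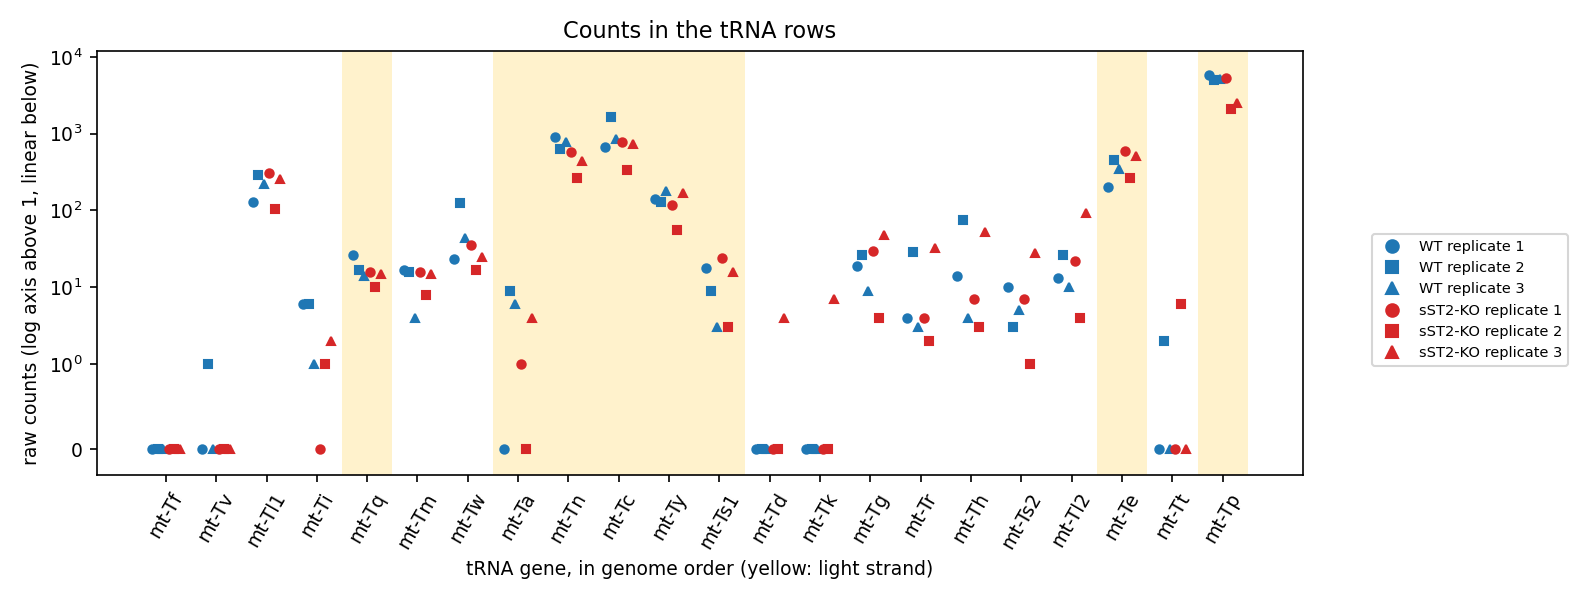
Raw counts of the 22 tRNA rows in genome order, 1 point per library, on an axis that is logarithmic above 1 and linear below; yellow marks light-strand tRNAs. mt-Tp holds 2095 to 5841 counts per library, mt-Tf holds 0 in each, and the 4 most counted rows, mt-Tp, mt-Tc, mt-Tn and mt-Te, are on the light strand.

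Log2 changes of the respiratory subunits encoded in the nucleus were mostly positive, where those of the mitochondrial mRNAs were negative, and the difference between the sets was not tested. Of 75 nuclear-encoded subunits of the 5 complexes, 74 had a positive log2 change and 1 a negative one, with a median of 0.65 against 0.04 for all genes. Of all tested genes, 46.5% had a negative log2 change. None of the 75 passed the edgeR threshold. At an unadjusted p under 0.05 (edgeR) there was 1 of 75, higher in sST2-KO, against 5.08% of all genes on the higher side. Groups did not overlap for 0 of 75, against 9.09% of all genes higher and 10.0% lower without overlap. The median was 0.35 without WT replicate 2 and 0.99 without sST2-KO replicate 2, and it was 0.38 without sST2-KO replicate 3. By complex, the medians were 0.65 (complex I, 36 genes), 0.68 (complex II, 4 genes), 0.88 (complex III, 9 genes), 0.71 (complex IV, 11 genes) and 0.47 (ATP synthase, 15 genes). Centred on the mean of the 6 libraries, the median log2 level of these 75 was 0.19, -1.12 and -0.11 in WT against 0.60, -0.44 and 0.88 in sST2-KO. For the 13 mitochondrial mRNAs it was -0.26, 1.41 and -0.02 in WT against 0.40, -1.64 and 0.27 in sST2-KO. WT replicate 2 was thus highest for the mitochondrial and lowest for the nuclear set. The sets lay on opposite sides of the mean in WT replicates 1 and 2 and on the same side in the other 4 libraries.

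The brown adipocyte markers were also highest in sST2-KO replicates 1 and 3, the libraries with the highest nuclear subunit levels (1196 and 2373 CPM, against 302, 156 and 231 in WT against 129 in sST2-KO replicate 2), and striated muscle markers summed to 395, 22.6 and 288 CPM in WT against 177, 273 and 47.5 CPM in sST2-KO. Their part in these levels was not tested. Atp5b, the catalytic subunit of ATP synthase, had 876, 382 and 783 against 1224, 493 and 1275 CPM (log2 change 0.55, SE 0.47, edgeR adjusted p = 0.637). The replicate 2 library was the lowest of each group.

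Set against each other, mitochondrially encoded counts per nuclear-encoded count of the same complex were lower in all sST2-KO libraries for complexes III and IV. For complex IV the ratio was 39.0, 333 and 53.5 in WT against 36.8, 22.4 and 26.2 in sST2-KO. For complex III it was 25.5, 168 and 31.6 against 24.2, 14.9 and 17.6. In both, sST2-KO replicate 1 lay close under WT replicate 1, and no test was run on these ratios. For complex I the groups overlapped (20.4, 136 and 27.2 against 23.6, 12.99 and 16.7), as they did for ATP synthase (0.833, 7.03 and 1.80 against 1.16, 0.234 and 1.10).

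Most nuclear genes that maintain, transcribe and translate the mitochondrial genome also had positive log2 changes, with none past the edgeR threshold. Of 77 tested mitochondrial ribosomal proteins 74 were positive (median 0.40, or 0.23 without WT replicate 2), 9 had an unadjusted p under 0.05 on the higher side against 5.08% of all genes, and 15 were higher without overlap against 9.09%. Mrps12, a protein of the small mitochondrial ribosomal subunit, had 6.89, 1.99 and 8.47 CPM in WT against 22.4, 15.5 and 23.4 CPM in sST2-KO, clear of overlap (log2 change 1.81, SE 0.51; edgeR adjusted p = 0.413, DESeq2 adjusted p = 0.031). Mrpl54, of the large subunit, had 12.7 to 20.3 CPM in WT against 25.1 to 30.2 CPM in sST2-KO (edgeR adjusted p = 0.435).

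Of 16 genes for mitochondrial DNA upkeep and transcription 11 were positive (median 0.10, or -0.00067 without sST2-KO replicate 3 and 0.25 without sST2-KO replicate 2), and 1 separated the groups, higher in sST2-KO, against 9.09% of all genes higher without overlap and 46.5% of all genes with a negative log2 change. That gene was Polrmt, the polymerase itself, with 18.6, 13.7 and 20.3 CPM in WT against 27.2, 20.9 and 25.5 CPM in sST2-KO (log2 change 0.48, SE 0.22, edgeR adjusted p = 0.468). Of 27 genes for RNA processing and decay 21 were positive (median 0.30, or 0.20 without sST2-KO replicate 3) and 4 separated the groups, all higher, read against the same 9.09%. Among them Dhx30, a helicase of mitochondrial RNA granules, had 48.9, 47.8 and 44.4 CPM in WT against 61.5, 65.9 and 65.0 CPM in sST2-KO (log2 change 0.45, SE 0.13, edgeR adjusted p = 0.422). Nsun4, which methylates mitochondrial rRNA, had 6.94 to 12.3 against 16.6 to 20.1 CPM (edgeR adjusted p = 0.431). Of 11 mitochondrial translation factors 8 were positive (median 0.32, or 0.17 without WT replicate 2) and 0 separated the groups.

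Of 8 regulators of mitochondrial biogenesis 4 were positive and 4 negative (median 0.01). Ppargc1a, a coactivator that drives mitochondrial biogenesis and is abundant in brown fat, had 5.02, 2.71 and 3.88 CPM in WT against 7.61, 11.8 and 56.3 CPM in sST2-KO. The groups did not overlap, but sST2-KO replicate 3, which also held the most brown adipocyte markers, stood far above the others (log2 change 2.70, SE 0.78; edgeR adjusted p = 0.417, DESeq2 adjusted p = 0.013). Of 9 tested mitophagy genes 6 were positive (median 0.31, or 0.17 without sST2-KO replicate 3), and 3 were higher and 2 lower without overlap, against 9.09% and 10.0% of all genes. Of all genes, 46.5% had a negative log2 change. Pink1, the kinase that marks damaged mitochondria, had 133, 95.3 and 139 CPM in WT against 176, 191 and 179 CPM in sST2-KO (log2 change 0.57, SE 0.20, edgeR adjusted p = 0.435). Of 13 genes of mitochondrial membranes and import 13 were positive (median 0.27, or 0.15 without sST2-KO replicate 3) and 4 separated the groups, all higher, against 9.09% of all genes, led by the import channel Tomm40 with 23.4, 11.4 and 27.4 CPM in WT against 46.6, 34.4 and 46.7 CPM in sST2-KO (log2 change 1.04, SE 0.33, edgeR adjusted p = 0.431).

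**Figure D5:**
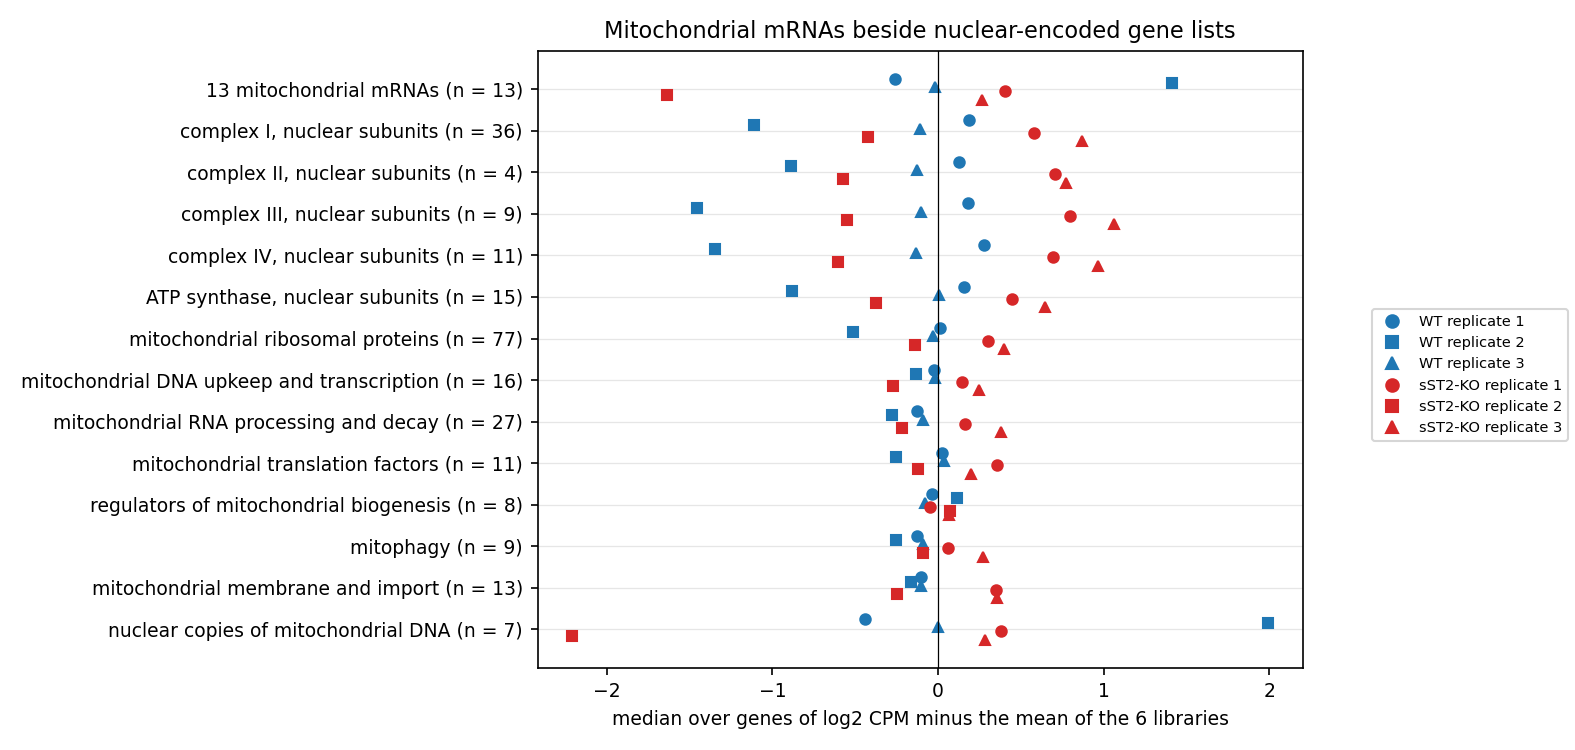
Median over the genes of each list of log2 CPM minus that gene's mean over the 6 libraries, 1 point per library, for the 13 mitochondrial mRNAs, 12 nuclear gene lists and the 7 nuclear copies. WT replicate 2 is highest for the mitochondrial mRNAs (1.41) and lowest for the nuclear subunits of all 5 complexes, and sST2-KO replicates 1 and 3 are highest for those subunits.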

How the data were processed

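Polyadenylated RNA of 6 mouse aortas was sequenced. The values the authors deposited are unnormalized counts, 1 row per Ensembl gene with its coordinates and length. Per the submitters' processing notes the build was mm39. For the aligner, the counter, the strand setting and the annotation, the entry is: not given in the sources used here. Groups were taken from the sample titles. Separate animals are implied by the design and not stated for each library, so p-values measure the spread between these samples.

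Counts of all genes were tested in edgeR 4.0.16 (R 4.3.3): filterByExpr (minimum count 10, minimum total 15), TMM scaling, glmQLFit and glmQLFTest, Benjamini-Hochberg over 16377 genes, threshold 0.05. The script was first tested on simulated data, with a pass required only in a simulation less variable than these data. The common biological coefficient of variation here was 0.42, so that pass does not show how many changes could be found. Shares and ratios per library were compared by exact permutation. SE is the log2 change divided by the square root of F. Sequences and copies were matched by identifier and length to GENCODE vM21 transcripts (37 of 37 members, 7 of 7 copies), with no coordinate of that annotation used. Of 302 entries in 13 nuclear and 7 marker lists, 301 were found. Named nuclear genes are the 2 with the lowest p and the most abundant of each list, some of which are given here and some not reported here. Members and lists were chosen with earlier results of these data known. Alternatives were other scalings and filters, DESeq2 1.42.0, limma-voom (limma 3.58.1), a replicate block, leaving out each library, and, chosen after seeing the data, leaving out WT replicate 3 with sST2-KO replicate 2 and treating the copies differently. Plots used matplotlib 3.10.9. Intervals and floors cover counting error only.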

Additional observations from a re-analysis of the deposited data

How the results depend on the processing

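edgeR called 0 genes in either direction under RLE scaling, total-count scaling, scaling without mitochondrial genes and the other low-count filters, and limma-voom also called 0. Scaling by the 13 mitochondrial mRNAs called 273 genes higher and 9 lower, and DESeq2 called 59 higher and 232 lower. Leaving out 1 library gave 0 to 0 genes higher and 0 to 1 lower. None of these calls was a mitochondrially encoded gene. The difference in rRNA counts per mRNA count ranged from -0.042 to 0.48 (log2) when 1 library was left out, and it reversed to -0.042 without sST2-KO replicate 3. The titles do not say whether the replicate numbers pair the samples, and the main test used no pairing. Same-numbered libraries had correlations of their deviations of 0.145, 0.046 and -0.087, against -0.119 to 0.045 for differently numbered ones. These few values do not settle it. With a replicate block edgeR called 0 genes, the median of the 13 mRNAs was -0.63, and the exact sign-flip p of the complex I difference was 0.25, the smallest 3 pairs can give. Depth does not limit the mRNAs or rRNAs, but it does limit the 9 untested tRNAs.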

Other observations

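Some heavy-strand tRNA rows had most of their few counts in sST2-KO replicate 3. mt-Tk had 7 counts and mt-Td 4 counts there and 0 in the other 5 libraries. mt-Tl2 had 93 counts there against 4 to 26 elsewhere, and mt-Ts2 had 28 against 1 to 10. mt-Th was high in sST2-KO replicate 3 (53) and in WT replicate 2 (74) against 3 to 14 in the other 4. sST2-KO replicate 3 also had the most rRNA counts per 100 mRNA counts (3.94) and the lowest light-strand percent of tRNA counts (88.8%).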
